A study of Homo sapiens with 2 samples.

Results

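The genes studied here encode the mitochondrial respiratory chain and the enzymes that make its lipid carrier, coenzyme Q. They were chosen by name from the array design, as gene probes present in both scanner files whose gene name belongs to the families NDUF (complex I), SDH (complex II), UQCR (complex III), COX4 to COX8 (complex IV), ATP5 (complex V, the ATP synthase) or COQ (coenzyme Q). Of 25940 gene names with 34127 probes, 96 genes with 125 probes were chosen.

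Complexes I and II feed electrons from NADH and succinate to coenzyme Q, complex III passes them to cytochrome c, and complex IV hands them to oxygen. Complexes I, III and IV pump protons, and ATP synthase uses the resulting gradient to make ATP. Most subunits are encoded in the nucleus and imported, while a few hydrophobic core subunits are encoded by mitochondrial DNA, so the genes of both genomes are read together in every cell that respires.

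MKN74 and MKN45 are established gastric cancer (GC) cell lines, grown in RPMI1640 medium with fetal bovine serum. Both received 50 nM siRNA by electroporation, either against SET7/9, a lysine methyltransferase encoded by SETD7, or a negative control siRNA, and total RNA was taken 48 hrs later. A single 2-colour Agilent array was made per line. On both, Cy5 marked the cells with SET7/9 siRNA and Cy3 those with the negative control, so the dyes were not swapped and a difference between dyes and a response to the siRNA cannot be told apart for a single probe. Both arrays shared a slide and a scan. The sources used here do not name the SET7/9 siRNA behind these arrays. The cells are bulk cultures, and no replicate cultures were measured, so the values below carry the spread of repeated spots or the error of the scanner software and no spread between cultures.

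SETD7 itself was lower with SET7/9 siRNA in both lines. At the probe on chromosome 4 (140427692 to 140427751, GRCh37), its signal was 369 with the control and 90.1 with SET7/9 siRNA in MKN74, and 197 and 51.2 in MKN45. The log2 ratios were -2.03 and -1.95, with a software error of 0.28 each. A second SETD7 probe was at 0.24 in MKN74 and -0.23 in MKN45. The epithelial markers KRT8, KRT18, KRT19, EPCAM and CDH1 were well above background in both dyes of both lines, and of PTPRC, COL1A1, PECAM1 and VIM, which mark other cell types, 1 was in Cy3 and 2 in Cy5 in MKN74, and 4 and 3 in MKN45. Their Cy3 signals were at most 47.4 in MKN45, with COL1A1 at 183 in MKN74, against 4807 or more for the epithelial markers at their brightest probe. Probes with 50% or more of their spots well above background in 1 dye or both were kept, 20674 probes on the MKN74 array and 22830 on that of MKN45. Of the 125 respiratory-chain probes, both dyes were well above background for 115 in MKN74 and 118 in MKN45.

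The chosen genes fall into 74 subunits of complexes I to V, 9 COQ genes, 7 isoforms restricted to particular tissues or conditions, and 6 genes that share a name stem with the subunits but are not core subunits. Complex I holds 36 of the subunits, 7 of them core and 29 accessory, complex II holds 4, complex III 8, complex IV 11 and complex V 15. NDUFA4 was placed in complex IV, where its protein is found in spite of its name. All 96 names matched the RefSeq gene table, and 21 carry another symbol there, for example ATP5A1, now ATP5F1A, and NDUFA4, now COXFA4. Each gene is given by its brightest kept probe unless stated otherwise.

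None of the 74 subunits differed by 1.5-fold or more with SET7/9 siRNA in either line. The lowest and highest log2 ratios were -0.26 (COX7A2) and 0.36 (NDUFA5) for MKN74, and -0.32 (COX8A) and 0.18 (NDUFC1) for MKN45, where the cutoff of 1.5-fold is 0.58. The median was 0.00 in MKN74, with 36 of 74 above 0, and -0.04 in MKN45, with 23 of 74 above 0, where it was between -0.03 and -0.06 under the other settings tried. The software error of a subunit was 0.20 to 0.21, and 8 subunits in MKN74 and 9 in MKN45 lay further from 0 than that. In both lines 59 of the 74 stayed within 0.2 of 0 on the log2 scale. Over all 91 genes kept on each array, 1 was lower by 1.5-fold or more in MKN74 and 1 was higher by as much, beside 1.73% and 3.82% of all genes measured there, and 0 were lower or higher in MKN45, beside 1.92% and 4.68%. Both genes past the cutoff are isoforms close to background, described further on.

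Genes of the chain are bright on these arrays, and bright probes spread less. In MKN74, 69 of the 74 subunits (93.2%), and in MKN45 70 of them (94.6%), lay in the brightest 20% of genes measured in both dyes. Over those genes the log2 ratios had an SD of 0.15 in each line, and 0.277% of them in MKN74 and 0.382% in MKN45 passed 1.5-fold. The SD over the subunits was 0.12 in MKN74 and 0.11 in MKN45.

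**Figure D1:**
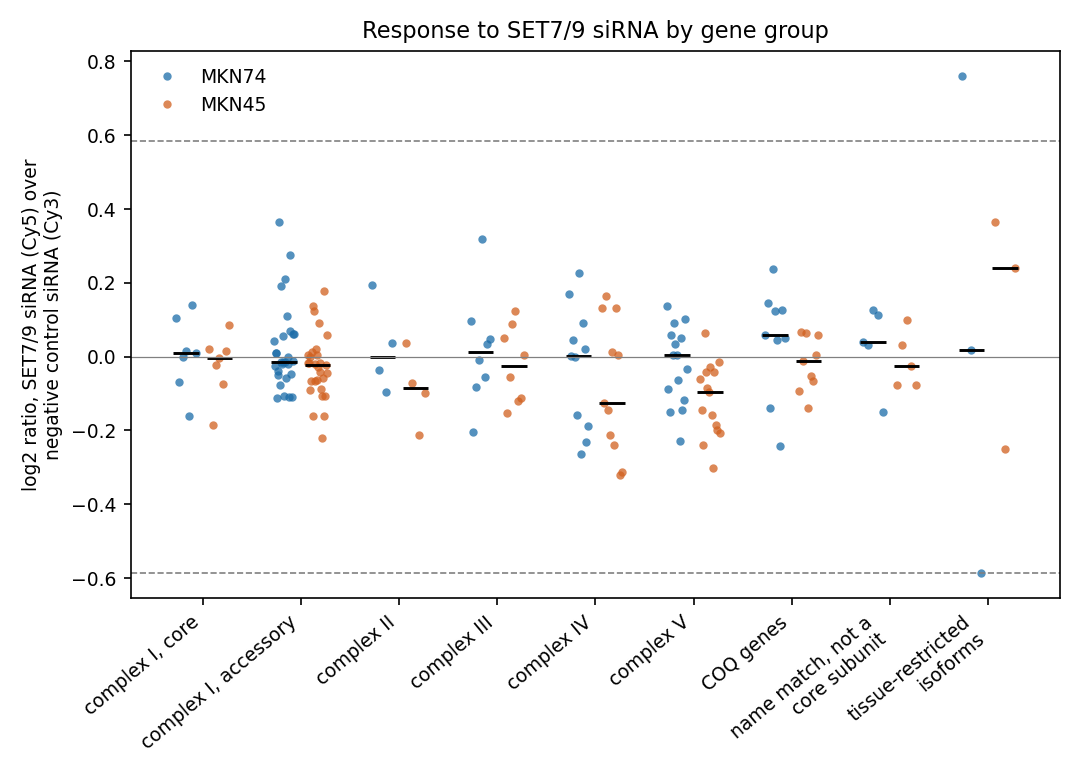
Log2 ratio of SET7/9 siRNA (Cy5) over negative control siRNA (Cy3) for each kept gene, by group, in MKN74 (blue) and MKN45 (orange). Each point is 1 gene at its brightest probe, the black lines are medians, and the dashed lines are the cutoff of 1.5-fold (0.58). All subunits of complexes I to V lie between the dashed lines, and the points past or at them in MKN74 are COX6A2 (0.76) and NDUFA4L2 (-0.59).

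In complex I, the accessory subunits NDUFA5 and NDUFC1 had the highest values. NDUFA5, in the arm that reaches into the matrix, had a signal of 3210 in control MKN74 cells and 4133 with SET7/9 siRNA, and of 3777 and 4156 in MKN45. The log2 ratios were 0.36 and 0.14, or 1.29-fold and 1.10-fold. NDUFC1, a small subunit of the membrane arm, had a signal of 22562 with the control and 27304 with SET7/9 siRNA in MKN74, and of 15708 and 17779 in MKN45, which gives log2 ratios of 0.28 and 0.18. Both genes were higher with SET7/9 siRNA in both lines. The lowest accessory subunit by the mean of the lines was NDUFB8, at -0.11 and -0.22. A second NDUFB8 probe was at 0.03 and 0.08, on the other side of 0 in both lines.

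The core subunits of complex I, which carry the flavin, the iron-sulphur clusters and the coenzyme Q site, had a median of 0.01 in MKN74 and 0.00 in MKN45. NDUFV1, which binds NADH, was the highest by the mean of the lines, at 0.14 and 0.02. After another background correction and normalization (normexp and loess), NDUFV1 was at 0.04 and -0.02.

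Complex II, succinate dehydrogenase, belongs to both the respiratory chain and the tricarboxylic acid cycle. Its 4 genes differed little. SDHA, the flavoprotein, was at 0.19 in MKN74 and 0.04 in MKN45, and the other 3 SDHA probes ran from -0.11 to 0.11 and from -0.21 to -0.06. The RefSeq accessions that the design lists for 3 of the 4 SDHA probes include SDHA pseudogenes (SDHAP1, SDHAP2 or SDHAP3), so RNA of these copies could be part of that signal. SDHB, the iron-sulphur subunit, was at -0.04 and -0.07. The membrane anchors SDHC and SDHD were at -0.10 and -0.21, and at 0.04 and -0.10. In MKN45 the probes of SDHC ran from -0.27 to -0.05 and those of SDHD from -0.16 to -0.10. All 6 thus lay below 0, whereas in MKN74 both genes had probes on either side. With normexp and loess the SDHC probe at -0.05 in MKN45 was at 0.04.

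In complex III, UQCRC2, a core protein of the complex, was among the few subunits printed 10 times. Its signal was 5883 in the control and 7330 with SET7/9 siRNA in MKN74, and 8726 and 9500 in MKN45. On the log2 scale the difference was 0.32 ± 0.04 for MKN74 and 0.12 ± 0.04 for MKN45 (SD over 10 spots of 1 array). The gap of 0.19 between the lines was larger than the spread of the spots, which does not include the spread between cultures. UQCR11, a small subunit, was the lowest of complex III, with a signal of 21873 and 18999 in MKN74 and 52036 and 46843 in MKN45, or -0.20 and -0.15.

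Complex IV held the lowest subunits. COX8A, a small nuclear subunit, had a signal of 50242 with the control and 42822 with SET7/9 siRNA in MKN74, and 55274 and 44221 in MKN45, log2 ratios of -0.23 and -0.32. COX7A2 was at -0.26 and -0.24, and NDUFA4 at -0.19 and -0.31. COX4I1, the ubiquitous form of subunit 4, was the highest by the mean of the lines, at 0.17 and 0.13. These low values depended on the normalization. With normexp and loess COX8A was at -0.05 and -0.17, COX7A2 at -0.19 and -0.11, and NDUFA4 at -0.03 and -0.08. The median of complex IV was 0.00 in MKN74 and -0.13 in MKN45, and -0.01 and -0.05 with normexp and loess.

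In complex V, 14 of 15 genes were below 0 in MKN45 and 7 of 15 in MKN74. Over all genes, 53.2% were above 0 in MKN45 and 51.2% in MKN74. ATP5H, subunit d of the peripheral stalk, was the lowest, with a signal of 27515 in the control and 23475 with SET7/9 siRNA in MKN74, and 29003 and 23516 in MKN45, log2 ratios of -0.23 and -0.30. ATP5D, the delta subunit of the central stalk, was the highest by the mean of the lines, at 0.06 in each, and the single gene above 0 in MKN45, while ATP5A1, the alpha subunit, was the highest in MKN74 (0.14). The 3 genes for the c subunit, ATP5G1, ATP5G2 and ATP5G3, encode the same mature ring protein. They were at 0.03, 0.00 and -0.06 in MKN74 and at -0.10, -0.03 and -0.16 in MKN45. The median of complex V in MKN45 was -0.10, and -0.10 or -0.11 under the other settings tried, with 4 of 15 above 0 after normexp and loess. In MKN74 the median was 0.004, and it fell below 0 with median centring (-0.002), with normexp and loess (-0.006) and with the mean over probes (-0.031).

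The COQ genes had a median of 0.06 in MKN74 and -0.01 in MKN45, where it turned to 0.01 with normexp and loess. COQ3, a methyltransferase of the coenzyme Q ring, was the highest by the mean of the lines, at 0.24 and 0.06, but its second probe was at -0.08 and -0.31. COQ6, a hydroxylase of the ring, was the lowest, at -0.24 and -0.07. Among the genes that share a name stem with the subunits but are not core subunits, ATP5SL (now DMAC2) was the highest. It was at 0.13 and 0.10, and COX7A2L, the lowest, was at -0.15 and -0.08.

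**Figure D2:**
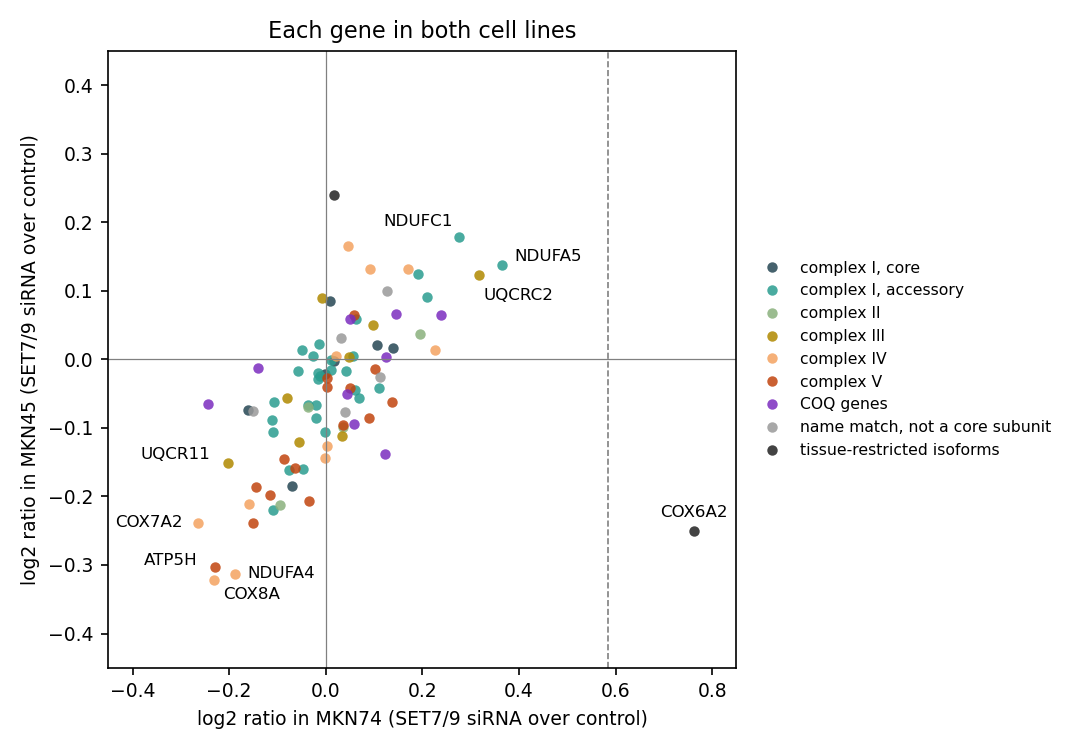
Log2 ratio of SET7/9 siRNA over negative control siRNA in MKN74 (horizontal axis) against MKN45 (vertical axis) for the 90 genes kept on both arrays, coloured by group, with the dashed line at 1.5-fold (0.58). NDUFA5, NDUFC1 and UQCRC2 lie at the upper right, COX8A, ATP5H, NDUFA4 and COX7A2 at the lower left, and COX6A2 (0.76 and -0.25) lies apart.

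The subunits kept a similar order in both lines. Over the 74 subunits the log2 ratios of the lines correlated with Pearson's r of 0.79 and Spearman's rho of 0.77, against 0.40 for both over all 15191 genes kept on both arrays. Over the 2362 genes in the brightest 20% of both arrays, among which 69 of the subunits lie, the values were 0.60 and 0.59. Over all 90 respiratory-chain genes kept on both arrays, the dim isoforms included, they were 0.49 and 0.65. After normexp and loess the values over the subunits were 0.78 and 0.76. These are relations across genes, which are not independent replicates, and the points share the probe, the dye of each siRNA, the slide and the scan. Of the 74, 19 were above 0 and 34 below 0 in both lines, and 21 had opposite signs. The subunits 0.2 or more below 0 in both lines were ATP5H, COX7A2 and COX8A, and 0 subunits were 0.2 or more above 0 in both. Both lists depended on the normalization. With normexp and loess ATP5H was at -0.11 and -0.21, COX7A2 at -0.19 and -0.11, and COX8A at -0.05 and -0.17. None of them then lay 0.2 or more below 0 in both lines. NDUFS4 did (-0.20 and -0.21), and NDUFC1 lay above 0 by as much (0.38 and 0.23).

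The response differed little between the lines. The log2 ratio in MKN45 minus that in MKN74 ran from -0.23 (NDUFA5) to 0.12 (COX5B, a subunit of complex IV) over the 74 subunits, with a median of -0.06 and 16 of 74 above 0. The median over all genes was 0.00, with 49.2% above 0. Of 90 genes kept on both arrays, 1 had log2 ratios 1.5-fold or more apart, COX6A2, beside 5.89% of all genes, and since its Cy3 signal in MKN74 was not well above background, a difference of that size is not established. With 1 array per line these differences have no test.

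With both arrays taken as replicates of the knockdown, limma called 0 of 116 respiratory-chain probes at a Benjamini-Hochberg adjusted p of 0.05, as it called 0% of all 19595 probes. At an unadjusted p under 0.05 it gave 8 of the 116 (6.90%), beside 13.1% of all probes, and the lowest adjusted p was 0.26. The fit has 1 residual degree of freedom. After normexp and loess it called 7 of the 116, at mean log2 ratios between -0.29 and 0.31, when 8.72% of all probes were called. The 3 higher probes were those of NDUFC1 (0.31), NDUFA5 (0.27) and COX6B2 (0.24), and the 4 lower included those of UQCRB (-0.29), UQCR11 (-0.25) and SDHC (-0.24). The probes of UQCRB and SDHC were not the brightest of their gene. For the COX6B2 probe the design also lists accessions of C3orf33, CAMLG and MXRA7, so its signal cannot be given to COX6B2 alone.

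Isoforms restricted to other tissues or conditions were at or near background. COX7A1 (heart and skeletal muscle), COX7B2 and COX8C (testis) were not well above background in either dye of either line. COX4I2, a form of subunit 4 used in lung and at low oxygen, was not kept in MKN74. In MKN45 it had a signal of 10.3 in Cy3, not well above background, and 13.2 in Cy5. Its log2 ratio there was 0.37, with a software error of 0.52, and -0.04 with normexp and loess. COX6A2, the heart and muscle form of subunit 6A, had a signal of 11.3 in Cy3, not well above background, and 19.1 in Cy5 in MKN74, and of 36.6 and 30.8 in MKN45. Its log2 ratios were 0.76 and -0.25, with software errors of 0.47 and 0.27, and 0.12 and -0.12 with normexp and loess. With the dim dye raised to the lowest signal well above background and both dyes scaled across arrays, Cy5 was at least 1.10-fold higher in MKN74. This bound rests on the software's signals, is not reached with normexp and loess and is open to dye bias. NDUFA4L2, a form of NDUFA4 that is induced at low oxygen, had a signal of 19.5 in Cy3, not well above background, and a lower one in Cy5 that was, in MKN74, and was not kept in MKN45. Its log2 ratio was -0.59, just past the cutoff, and 0.017 with normexp and loess, and it gave no bound above 1-fold. COX6B2, the testis form of subunit 6B, had a probe with signals of 4020 to 5036, but the RefSeq accessions the design lists for it belong to C3orf33, CAMLG and MXRA7 as well as COX6B2. The other COX6B2 probe had dim signals, 26.8 in Cy3 in MKN45 for example, and log2 ratios of 0.44 and 0.16.

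Probes of the same gene mostly differed by less than the cutoff. Among the 19 genes with several kept probes in MKN74, the range between the highest and the lowest probe had a median of 0.14, and among 21 such genes in MKN45 of 0.18. The medians over all genes with several kept probes were 0.16 and 0.17. All probes had the same sign for 6 of the 19 genes (31.6%) in MKN74 and 10 of the 21 (47.6%) in MKN45, beside 55.1% and 52.9% of all such genes. The range passed 1.5-fold for COQ5 in MKN74 and for COQ5, ATP5L2 and COQ4 in MKN45, which is 5.26% and 14.3% of these genes, beside 3.67% and 5.24% of all such genes. In each case the probe that stood apart had signals of at most 32.2.

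COQ5, a methyltransferase of coenzyme Q synthesis, had the widest range. Its brightest probe, on chromosome 12 (120941355 to 120941414, GRCh37), was at 0.04 in MKN74 and -0.05 in MKN45, and the probe that overlaps it was at 0.14 and 0.05 (10 spots). The third probe, 30757 bases away (120972112 to 120972171) and listed for an Ensembl transcript only, had a signal of 23.9 with the control and 12.2 with SET7/9 siRNA in MKN74, and 32.2 and 14.7 in MKN45. Its log2 ratios were -0.97 and -1.13. It was lower with SET7/9 siRNA in both lines, while both probes in the gene's main transcript lay near 0. With normexp and loess the third probe was at -0.12 and -0.18, inside the cutoff. Whether the third probe measures COQ5 was not tested.

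The second UQCRB probe, for an accession other than that of the first, gave a like picture at smaller size. UQCRB binds ubiquinone in complex III. Its brightest probe was at -0.08 and -0.06 and its dim probe, with signals of 38.4 and 25.7 in MKN74 and 50.6 and 36.0 in MKN45, was at -0.58 and -0.49, just inside the cutoff in MKN74. The second COQ4 probe was at 0.62 in MKN45 (signals of 20.4 and 31.3) and below background in MKN74, against 0.12 and -0.14 for the first. The ATP5L2 probe that stood apart (-0.89 in MKN45, signals of 24.2 and 13.1) has no position in the design. Counted by probe, 2 respiratory-chain probes were at least 1.5-fold lower and 1 higher in each line, of 117 kept in MKN74 and 119 in MKN45, beside 1.76% lower and 3.78% higher over all probes in MKN74, and 1.97% and 4.81% in MKN45. With normexp and loess 0 of these probes passed the cutoff in either line, and the values ran between -0.31 and 0.38, with the second COQ4 probe at 0.05 and the dim ATP5L2 probe at -0.14 in MKN45.

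The bright ATP5L2 probe shows how alike parts of such probes can be. ATP5L encodes subunit g of ATP synthase, and ATP5L2 (now ATP5MGL) is a near copy of it. Their probes of 60 bases were placed along each other without gaps where most bases match. Of the 41 bases that overlap there, 35 are the same. The 30 bases shown here, 5′ to 3′ on the strand of the probe, are the stretch of this overlap with the most differences. Capitals mark the 5 that differ.
ATP5L2: tggctaGAatgtttgaagaccaGtcttAaC
ATP5L: tggctaTGatgtttgaagaccaAtcttTaA
The ATP5L2 probe was at 0.04 in MKN74 and -0.08 in MKN45, and the ATP5L probe at 0.10 and -0.01. How much of the ATP5L2 signal came from ATP5L was not tested.

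**Figure D3:**
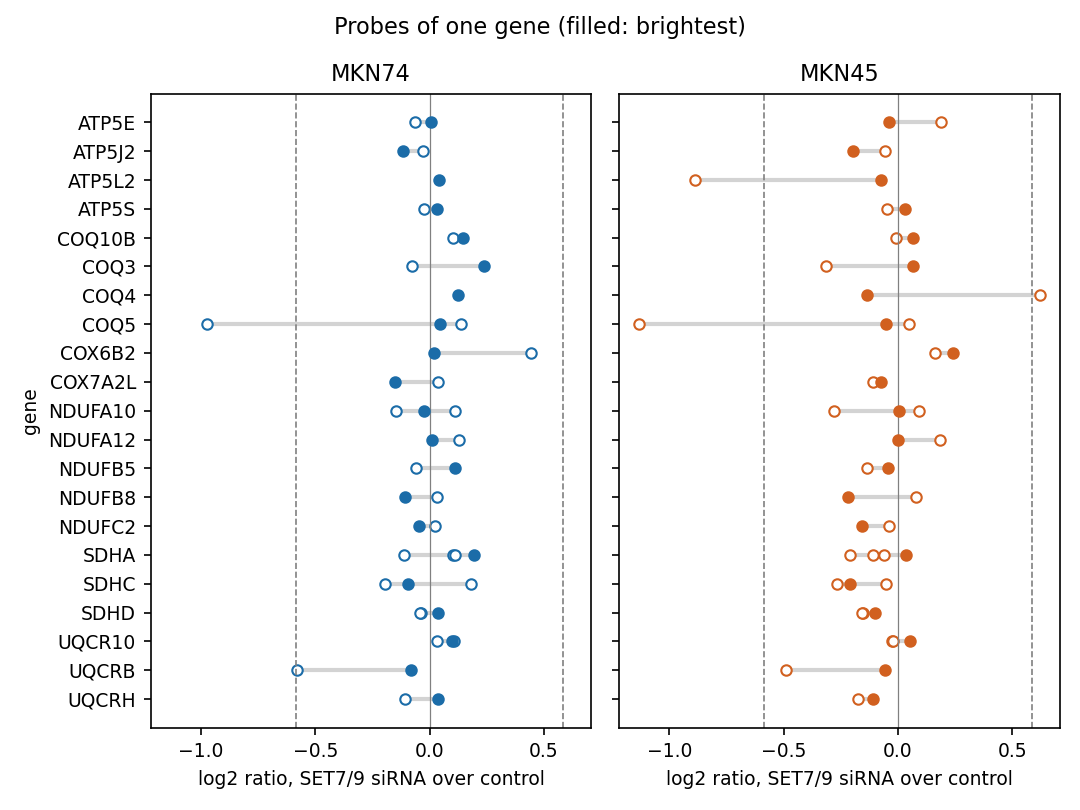
Log2 ratio of SET7/9 siRNA over negative control siRNA for every kept probe of the genes with several probes, in MKN74 (left, blue) and MKN45 (right, orange). Filled points are the brightest probe of a gene, open points its other probes, grey bars their range, and dashed lines the cutoff of 1.5-fold. The open points of COQ5 (-0.97 and -1.13) lie furthest from their filled points.

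The levels in control cells differed between the lines by up to 1.73 on the log2 scale over the subunits. The Cy3 signal of each probe was scaled to its array's 75th percentile and the lines were compared probe by probe on the log2 scale. Of 89 genes with Cy3 well above background in both lines, 8 were at least 2-fold higher in MKN45 and 5 at least 2-fold lower, beside 16.6% and 17.8% of all 13623 genes compared. Over the 74 subunits 7 were higher and 1 lower by that measure. The median difference of the 74 was 0.35, with 52 of 74 higher in MKN45, and it was between 0.26 and 0.43 under the other scalings, channels and background correction. The median over all genes was 0.02 with this scaling and -0.11 with quantile normalization, a shift of more than 0.1, so that the chosen genes lay 0.31 and 0.38 above all genes, and 0.15 above them with normexp. Each line is 1 culture, and fewer cells that use a gene and less RNA per cell cannot be told apart.

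By complex, the median difference was 0.68 for the core and 0.30 for the accessory subunits of complex I, -0.23 for complex II, 0.61 for complex III, 0.61 for complex IV and 0.33 for complex V. The sign of each of these medians was the same under all scalings tried, though with quantile normalization complex V came down to 0.07, complex IV to 0.37 and complex III to 0.33. Complex II lay between -0.35 (Cy5 channel) and -0.10 (quantile), and the accessory subunits of complex I came to 0.17 in the Cy5 channel. In complex IV 10 of 11 subunits were higher in MKN45, and 7 of 11 with quantile normalization. In complex II, SDHA was higher (0.77) and SDHC near 0 (0.15), while SDHB (-0.68) and SDHD (-0.60) were lower.

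The 5 genes furthest up in MKN45 were COQ10A, NDUFA4, ATP5D, UQCR11 and NDUFA2. COQ10A, a protein that binds coenzyme Q, had a Cy3 signal of 80.5 in MKN74 and 414 in MKN45, a scaled difference of 2.55 (5.84-fold), which came to 1.67 with normexp. NDUFA4 went from 23188 to 67516, a difference of 1.73 (3.31-fold), and 1.81 at the highest under the alternatives. ATP5D (1.51), UQCR11 (1.43) and NDUFA2, an accessory subunit of complex I (1.29), followed. In the Cy5 channel, which holds the cells with SET7/9 siRNA, the differences were 2.39 for COQ10A, 1.59 for NDUFA4 and 1.51 for ATP5D.

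The 5 genes furthest down in MKN45 were COX7A2L, NDUFB6, COQ10B, COX4NB and ATP5S, and only NDUFB6 of these is a subunit. COX7A2L, which helps complexes III and IV to join into supercomplexes, had a Cy3 signal of 11974 in MKN74 and 2889 in MKN45, a scaled difference of -1.87 (3.65-fold), and its second probe gave -1.87 as well. NDUFB6, an accessory subunit of complex I, went from 6970 to 2334 (-1.39). COQ10B, the close relative of COQ10A, went from 396 to 134 (-1.38), and its second probe gave -1.36. COQ10A and COQ10B thus differed between the lines in opposite directions. COX4NB (now EMC8), a protein of the endoplasmic reticulum in spite of its name, was at -1.14 and ATP5S (now DMAC2L) at -1.11.

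Among the relatives of COX7A, COX7A2 was 1.02 higher in MKN45 where COX7A2L was lower. COX4I1 was at -0.44. COX6A2 had a Cy3 signal of 11.3 in MKN74, not well above background, and of 36.6 in MKN45. On the signals of the scanner software it was at least 1.34-fold higher in MKN45, a bound that rests on a dim probe. In the Cy5 channel, 87 of 89 genes had the sign they had in Cy3, and the differences in the 2 channels lay a median of 0.09 apart.

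Probes of a gene differed more in this comparison. The range between probes had a median of 0.43 over 19 genes, beside 0.47 over all 3108 genes with several probes, and passed 2-fold for NDUFA10 and SDHC, 10.5% of these genes beside 24.6% of all such genes. The NDUFA10 probes ran from -0.49 to 1.89, with the brightest at -0.02, and the SDHC probes from 0.06 to 1.11.

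**Figure D4:**
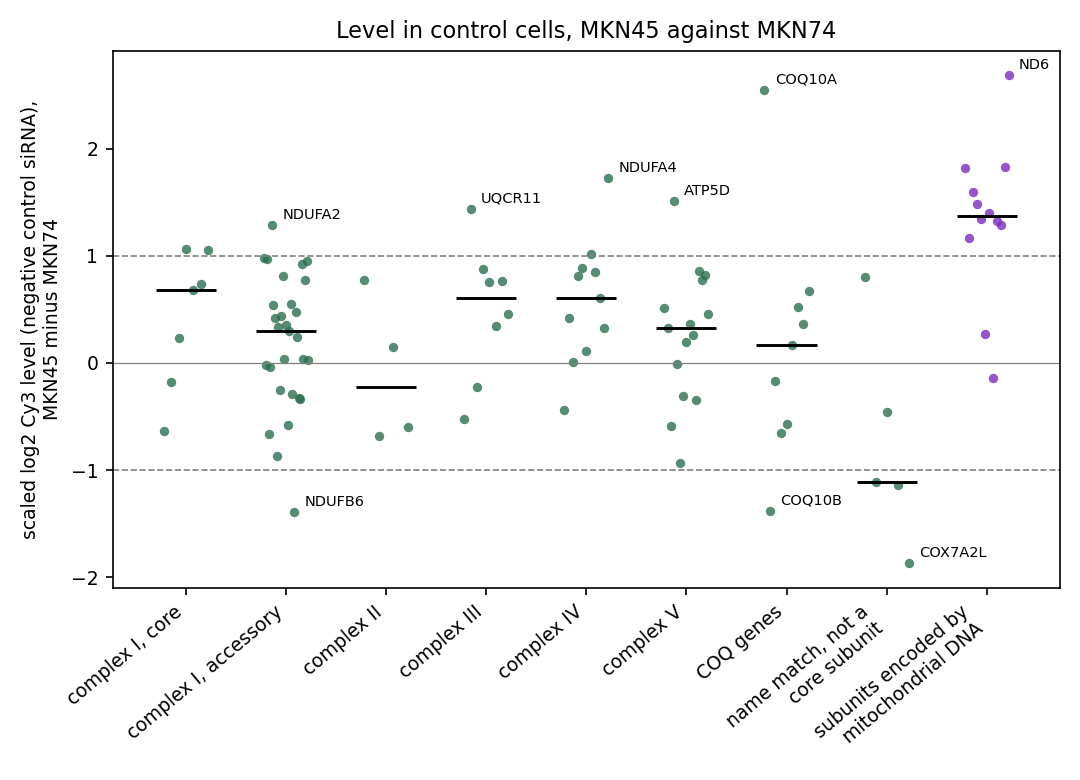
Difference of the scaled log2 Cy3 level (negative control siRNA) between MKN45 and MKN74, by group, for genes well above background in both lines. Each point is 1 gene, black lines are medians and dashed lines are 2-fold (1 and -1), with the tissue-restricted isoforms left out. COX7A2L (-1.87), NDUFB6 and COQ10B lie lowest among the nuclear genes, COQ10A (2.55) and NDUFA4 (1.73) highest, and the subunits encoded by mitochondrial DNA (purple) have a median of 1.37.

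Upstream sequences are shown for 3 of the genes that differed most between the lines, as the stretch a reader would look at first for such a difference. RefSeq gave a promoter window for 77 of the 96 genes. It was searched on both strands for CGCATGCG and the looser CGCANGCG (the centre of the site of NRF1, which drives many nuclear genes of the chain), CCGGAAG (ETS factors such as GABPA), AAGATGGC (YY1), GGGCGG (the GC box) and TATAAA (the TATA box), where the looser NRF1 form contains the strict one. The looser NRF1 form was in 20 of 62 promoters of subunits (32.3%) and in 9.17% of all 27305 promoters, and the strict form in 9 (14.5%) and 1.86%. CCGGAAG was in 16 (25.8%) beside 8.82%, GGGCGG in 35 (56.5%) beside 42.3%, AAGATGGC in 1 (1.61%) beside 1.37%, and TATAAA in 6 (9.68%) beside 11.1%. A match of letters is no evidence of binding. The 250 bases before the start site (GRCh38.p14), 5′ to 3′ along the gene, are those of UQCR11 (minus strand of chr19:1605463-1605712), with motif matches in capitals, and of NDUFA4 (minus strand of chr7:10940154-10940403) and COX7A2L (minus strand of chr2:42361218-42361467), in which these letters were not found.
UQCR11: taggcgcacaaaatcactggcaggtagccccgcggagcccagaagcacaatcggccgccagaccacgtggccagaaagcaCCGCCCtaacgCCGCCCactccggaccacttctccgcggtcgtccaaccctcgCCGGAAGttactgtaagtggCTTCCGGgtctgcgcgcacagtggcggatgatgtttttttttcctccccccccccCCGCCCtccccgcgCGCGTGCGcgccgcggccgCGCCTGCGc
NDUFA4: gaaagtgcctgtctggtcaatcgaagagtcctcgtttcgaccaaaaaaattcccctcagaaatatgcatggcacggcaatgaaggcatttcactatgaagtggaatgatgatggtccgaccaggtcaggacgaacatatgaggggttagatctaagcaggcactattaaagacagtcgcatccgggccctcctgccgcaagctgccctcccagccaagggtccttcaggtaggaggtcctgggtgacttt
COX7A2L: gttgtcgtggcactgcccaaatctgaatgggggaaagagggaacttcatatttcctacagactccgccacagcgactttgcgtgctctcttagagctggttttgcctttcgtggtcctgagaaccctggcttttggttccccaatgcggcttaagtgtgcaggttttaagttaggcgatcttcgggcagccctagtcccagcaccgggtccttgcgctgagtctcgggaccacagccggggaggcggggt
UQCR11 holds matches to the looser NRF1 form, CCGGAAG and GGGCGG near one another. NDUFA4 and COX7A2L, which differed in opposite directions between the lines, hold none in this window. Of promoters not shown, that of COQ10B, lower in MKN45 (-1.38), holds the same forms as UQCR11. That of COQ10A, higher in MKN45 (2.55), holds none. Whether these letters bear on the levels was not tested.

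The subunits encoded by mitochondrial DNA had a larger median difference between the lines than the nuclear ones, which was not tested. Of 12 such genes with a probe placed on mitochondrial DNA, 10 were at least 2-fold higher in control MKN45 cells, beside 16.6% of all genes, and the median difference was 1.37, between 1.23 and 1.45 under the other settings tried. ND6, the subunit of complex I read from the light strand, had a Cy3 signal of 160 in MKN74 and 904 in MKN45 (2.68). ATP6, a subunit of ATP synthase, went from 26616 to 82527 (1.82), and ND3, a subunit of complex I, from 22064 to 17636 (-0.14). The COX1 probe, at 0.70, is placed on chromosome 1 (567567 to 567626) and was not counted. After SET7/9 siRNA their lowest and highest log2 ratios were -0.23 and 0.18 in MKN74 and -0.24 and 0.21 in MKN45, and 0 of 12 passed 1.5-fold. In MKN45, 9 of these 12 were above 0 (median 0.10), and between 9 and 10 of 12 under the other settings, beside 23 of the 74 nuclear subunits and 53.2% of all genes. In MKN74, 5 of the 12 were above 0 (median -0.02), beside 36 of the 74 and 51.2% of all genes.

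Of the other genes of the pathway, CYC1, the cytochrome of complex III, was at 0.02 and -0.08, and CYCS, cytochrome c, had its lowest and highest probes at -0.16 and 0.33 in MKN74 and at -0.14 and 0.26 in MKN45. Of the 6 nuclear subunits and carriers whose names fall outside the families, 0 passed the cutoff in either line. Of 31 assembly factors on the array, 29 were kept in MKN74 and 30 in MKN45, and 1 passed the cutoff, ATPAF1, which helps to assemble the head of ATP synthase, at 1.03 in MKN45 with a Cy3 signal of 11.9 that was not well above background. Of 20 regulators of mitochondrial biogenesis, 0 of the 18 and 19 kept passed it. PPARGC1A, a coactivator that raises mitochondrial content, was not well above background in either line. NRF1 was at 0.03 and -0.15, and TFAM, which packages and transcribes mitochondrial DNA, at 0.04 and 0.02. None of 13 genes of the tricarboxylic acid cycle passed the cutoff, nor did any of the 15 and 17 kept genes of glycolysis. Median log2 ratios of these last 4 lists ran from -0.05 (tricarboxylic acid cycle) to 0.07 (regulators) in MKN74 and from -0.07 (tricarboxylic acid cycle) to -0.001 (assembly factors) in MKN45, beside 0.01 over all genes in both lines.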

How the data were processed

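The intensity values the authors deposited are those of Agilent Feature Extraction 10.7.3.1, background-subtracted and dye-normalized for each spot, per the file headers. Per the same file headers, a log10 ratio (Cy5 over Cy3) and the software's error for it were deposited beside them. A separate table of log2 values from the authors matched the scanner ratios within 0.01 for at least 99.4% of probes.

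Ratios were converted to log2, spots of controls or with an outlier flag were left out, and repeated spots of a probe were averaged. No spot was saturated. The cutoff of 1.5-fold is that of the study's methods. A gene is its brightest probe among those kept on both arrays, or else on 1. The common response was fitted with limma 3.58.1 in R 4.3.3 (Benjamini-Hochberg adjustment), and the fit and counts were tested on simulated data. Number of arrays limits the precision. Alternatives covered normexp (offset 50) with loess, centring, filters, probe choice, cutoffs, channel and scaling. The members and gene lists were chosen with earlier results of these data known. Genes named are SETD7, those past a cutoff, the highest and lowest of each complex by the mean of both lines, the 5 largest Cy3 differences each way, the SDH genes, tissue-restricted isoforms, genes near the cutoff or with discordant probes, CYC1, CYCS, PPARGC1A, NRF1, TFAM and families of like proteins. NDUFC1, COX7A2, COX5B, ATP5A1, NDUFA10, ATPAF1, ND6, ATP6, ND3 and COX1 were named after their values were seen. Probe positions are on GRCh37, promoters on GRCh38.p14 (RefSeq). Protein sequences were not used here. A gene that the naming rule takes is not reported here.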

Additional observations from a re-analysis of the deposited data

Results flagged for a closer look

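COX6A2, the heart and muscle form of a complex IV subunit, had log2 ratios of opposite sign, 0.76 (MKN74) and -0.25 (MKN45), nominally -1.01 apart. The difference was not tested, since each line had 1 array, and the software errors were 0.47 and 0.27. Its signals were 11.3 and 19.1 in MKN74, where Cy3 was not well above background, and 36.6 and 30.8 in MKN45. With a dim Cy3 signal the ratio in MKN74 has only a lower bound, at least 1.10-fold on the scaled signals of the scanner software. With normexp and loess the ratios were 0.12 and -0.12, which does not reach that bound, so opposite responses are not established.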

How the results depend on the processing

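Each array sets both siRNAs of 1 line against each other, and the limma fit over both arrays uses these pairs. A replicate block within a line could not be fitted, since each line had 1 array, and leaving out an array left no residual degree of freedom. In MKN74, 1 gene at least 1.5-fold lower (NDUFA4L2) and 1 higher (COX6A2) became 0 and 0 with normexp and loess, with the deposited table of log2 ratios, with both dyes required and at a cutoff of 2-fold, and 2 and 3 with no filter. At the lowest cutoff tried, the higher genes were COX6A2 (0.76) and NDUFA5 (0.36) in MKN74 and COX4I2 (0.37) in MKN45. Cy3 was not well above background for COX6A2 in MKN74 or for COX4I2 in MKN45. The log2 ratio of NDUFA4L2 in MKN74 turned from -0.59 to 0.0174 with normexp and loess. The 1 gene whose response differed between the lines (COX6A2) became 0 with normexp and loess and with both dyes required. The 8 genes at least 2-fold higher and 5 at least 2-fold lower in MKN45 control cells became 5 and 3 with normexp. The 0 member probes called by limma became 7 with normexp and loess. Normexp and loess moved 36 of 91 log2 ratios in MKN74 and 16 of 91 in MKN45 by more than the spot SD, and the mean over probes moved 6 and 8, while centring, the deposited table, the filters and the outlier spots moved 0. The causes were not tested. Probes not well above background give bounds only, and values within the spot SD of 0.05 to 0.06 have no order.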
